A study of Homo sapiens with 12 samples.

Results

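Aminoacyl-tRNA synthetases join each amino acid to its tRNA, and their mRNAs were followed here after knockdown of MESH1 in RCC4 cells. The set holds 36 of the 23710 gene symbols listed in the count files: 20 cytosolic enzymes or subunits, and 16 mitochondrial enzymes whose symbols end in 2. They were chosen by symbol and not by a cut on any measured value, although earlier results of these data were known. RCC4 is an established, VHL-deficient line of clear cell renal carcinoma, and RNA was sequenced 72 h after transfection with 40 pmol of siRNA. Experiment 1 compared 3 libraries of siMESH1#1 (siMESH1-CDS) with 3 of siNT, the AllStars Negative Control siRNA, and experiment 2 compared 3 libraries of siMESH1#2 (siMESH1-7002) with its own 3 siNT libraries, all of which the labels call biological replicates. All groups came from this 1 line and carried a transfected siRNA, and untransfected cells were not analysed here.

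Most amino acids are handled by separate nuclear genes for the cytosol and for the mitochondrion, while GARS and KARS each supply both compartments from 1 gene, and EPRS carries the glutamate and proline activities in 1 protein. Several cytosolic enzymes (among them EPRS, IARS, LARS, MARS, QARS, RARS and KARS) assemble with the scaffold proteins AIMP1, AIMP2 and EEF1E1 into the multisynthetase complex, and FARSA and FARSB are the subunits of cytosolic phenylalanyl-tRNA synthetase. Uncharged tRNA activates the kinase GCN2 (EIF2AK4), and ATF4, the transcription factor downstream of it, is known to raise many cytosolic synthetase genes through C/EBP-ATF elements in their promoters.

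MESH1 is listed under its official symbol HDDC3. HDDC3 lay at 8.23, 6.46 and 7.75 CPM (reads relative to the library's total, scaled by TMM) in siNT replicates 1 to 3 of experiment 1 and at 0.158, 0 and 0.316 with siMESH1#1. It lay at 13.9, 13.1 and 12.7 in the siNT libraries of experiment 2 and at 1.25, 1.18 and 1.72 with siMESH1#2. Reads in genes ranged from 34063155 to 49134129 per library in experiment 1 and from 24787804 to 31651125 in experiment 2. Replicates spread more in experiment 1 (biological coefficient of variation 0.299) than in experiment 2 (0.0490). All 6 markers of the line (PAX8, CA9, NDUFA4L2, VIM, KRT8 and KRT18) were present in siNT, at means of at least 27.6 CPM. The siNT controls were not alike: all 6 means were higher in experiment 2. They were 77.3 and 83.5 CPM for KRT18, 30.5 and 187 CPM for CA9 and 27.6 and 1002 CPM for NDUFA4L2 in experiments 1 and 2. With siMESH1#1 5 of the markers (all but VIM) were called lower, where 37.2% of all genes were. They ran from 34.7% of the control level for PAX8 to 2.26% for NDUFA4L2. The transcripts of these 5 have 57.0% to 62.9% GC. After a correction for GC content only NDUFA4L2 (log2 change -2.27) and KRT18 (-2.32) were still called lower. CA9 (-0.22) and KRT8 (-0.23) were then not called. PAX8 (0.49) and VIM (1.36) were called higher, as were 40.9% of all genes. Whether these marker changes have a part in the synthetase falls was not tested. The means of PTPRC, PECAM1, CDH5, ALB and DES were at most 0.146 CPM in every group. With siMESH1#1, change also followed the GC content of the transcript: over 10 classes of genes the median log2 change ran from 1.10 at the lowest GC content to -3.70 at the highest, against 0.14 to -0.10 with siMESH1#2.

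VARS, the valine enzyme, was listed at 0 in all 12 libraries, and its mitochondrial mate VARS2 had at most 2 reads in a library, so neither was tested. Both genes lie in the MHC region of chromosome 6. Among the 20 nearest protein-coding genes of the files, 17 for VARS and 12 for VARS2 also had at most 2 reads in every library, against 23.2% of the 18074 protein-coding symbols. The other 34 members passed the filter on low counts in both experiments.

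With siMESH1#2, most cytosolic synthetase mRNAs fell, the furthest to 61.6% of the control level. Of 19 tested cytosolic members, 13 were called lower (68.4%, where 26.7% of all 13568 genes were called lower), 1 was called higher (5.26%, where 26.6% of all genes were, and 53.3% either way) and 5 did not pass the test. A call here is an adjusted p under 0.05 in edgeR's quasi-likelihood test with Benjamini-Hochberg adjustment over all genes. The median log2 change was -0.16, against 0.0053 over all genes tested. For 13 members all siMESH1#2 libraries lay below siNT and for 1 all lay above, orders found for 29.9% and 29.6% of all genes. A correction for GC content left 12 members lower and 3 higher, where 23.5% and 39.3% of all genes were, and moved the median of all genes to 0.076 and that of the cytosolic members to -0.14. Without it, 16 of the 19 lay below the median of their own GC class.

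MARS, the methionine enzyme, fell furthest. MARS lay at 116, 119 and 110 CPM in siNT replicates 1 to 3 and at 70.5, 69.9 and 72.2 CPM with siMESH1#2. That left 61.6% of the control level, a log2 change of -0.70 (SE 0.050, n = 3 per group, edgeR adjusted p = 4.47e-09). FARSA, the catalytic subunit for phenylalanine, fell from 86.0, 84.2 and 78.3 CPM to 61.2, 58.9 and 55.0 CPM, a log2 change of -0.51 (SE 0.057, edgeR adjusted p = 1.26e-06). Its partner subunit FARSB stood at 31.9, 33.1 and 36.9 CPM in siNT and at 28.6, 30.1 and 27.9 CPM with siMESH1#2, a smaller log2 change of -0.23 (SE 0.067, edgeR adjusted p = 0.00793). In none of the 3 genes did the groups overlap.

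HARS and LARS, the histidine and leucine enzymes, fell by similar amounts. HARS was at 117, 124 and 115 CPM in siNT and at 86.0, 86.3 and 86.7 CPM with siMESH1#2, a log2 change of -0.46 (SE 0.049, edgeR adjusted p = 6.3e-07). LARS was at 232, 242 and 273 CPM in siNT and at 183, 183 and 182 CPM with siMESH1#2, a log2 change of -0.45 (SE 0.054, edgeR adjusted p = 2.54e-06). In both genes the siMESH1#2 libraries lay closer together than the siNT libraries, with LARS highest in siNT replicate 3. The gene models of HARS and HARS2 overlap by 437 bases on opposite strands (GENCODE 29), and whether the counting of these strand-marked libraries used strand is not given in the sources used here, so some reads could belong to either.

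AARS, the alanine enzyme, lay at 240, 243 and 243 CPM in siNT and at 186, 182 and 183 CPM with siMESH1#2, a log2 change of -0.40 (SE 0.041, edgeR adjusted p = 5.16e-07). WARS, the tryptophan enzyme, lay at 64.1, 64.9 and 65.2 CPM in siNT and at 51.2, 49.7 and 50.3 CPM with siMESH1#2, a log2 change of -0.36 (SE 0.050, edgeR adjusted p = 1.41e-05). YARS, the tyrosine enzyme, fell from 325, 335 and 325 CPM to 275, 275 and 268 CPM, a log2 change of -0.27 (SE 0.041, edgeR adjusted p = 3.22e-05). These 3 enzymes act outside the multisynthetase complex, and their groups were separated by more than the spread within either.

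NARS, for asparagine, was at 211, 221 and 239 CPM in siNT and at 184, 194 and 187 CPM with siMESH1#2, a log2 change of -0.25 (SE 0.050, edgeR adjusted p = 0.000511). The remaining called falls were small: TARS (threonine) had a log2 change of -0.16, GARS (glycine) of -0.15, IARS (isoleucine) of -0.14 and SARS (serine) of -0.12, with edgeR adjusted p from 0.00693 to 0.029. TARS ran from 168, 172 and 192 CPM in siNT to 158, 161 and 155 CPM. IARS ran from 195, 195 and 218 CPM to 183, 188 and 181 CPM. SARS ran from 197, 201 and 193 CPM to 180, 182 and 183 CPM, and its log2 change after the GC correction was -0.012. These 4 calls rested on single libraries: SARS lost its call without siNT replicate 2 or any 1 of the siMESH1#2 libraries, IARS without any 1 of the siMESH1#2 libraries, GARS without siMESH1#2 replicate 1 and TARS without siMESH1#2 replicate 3.

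RARS, the arginine enzyme, moved the other way. RARS lay at 108, 111 and 125 CPM in siNT and at 132, 137 and 131 CPM with siMESH1#2, a log2 change of 0.22 (SE 0.055, edgeR adjusted p = 0.00301), and the groups did not overlap. Among the 5 members that did not pass the test, CARS, EPRS, KARS and QARS had log2 changes between -0.067 and 0.036. For EPRS the 95% interval of the log2 change was -0.17 to 0.063, and for QARS it was -0.055 to 0.13. Corrected for GC content, QARS (0.16) and CARS (0.099) were called higher, where the median of all genes was 0.076 and 39.3% of them were called higher.

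By role, the falls lay mostly outside the multisynthetase complex. Of the 8 complex enzymes 3 were called lower (IARS, LARS and MARS), 1 higher (RARS) and 4 not called, with a median log2 change of -0.060, whereas 10 of the 11 other tested cytosolic members were called lower, with a median of -0.25. Of 12 tested members listed as ATF4-linked 10 were called lower and 0 higher, against 3 lower and 1 higher of the 7 others. Of all genes 26.7% were called lower and 26.6% higher with siMESH1#2. With siMESH1#1, 6 of these 12 were called lower and 5 higher, against 3 lower and 2 higher of the 7 others. The difference between these subsets was not tested, and they differ in base content: the complex enzymes had a median GC content of 43.4% and the other cytosolic members of 52.5%.

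**Figure D1:**
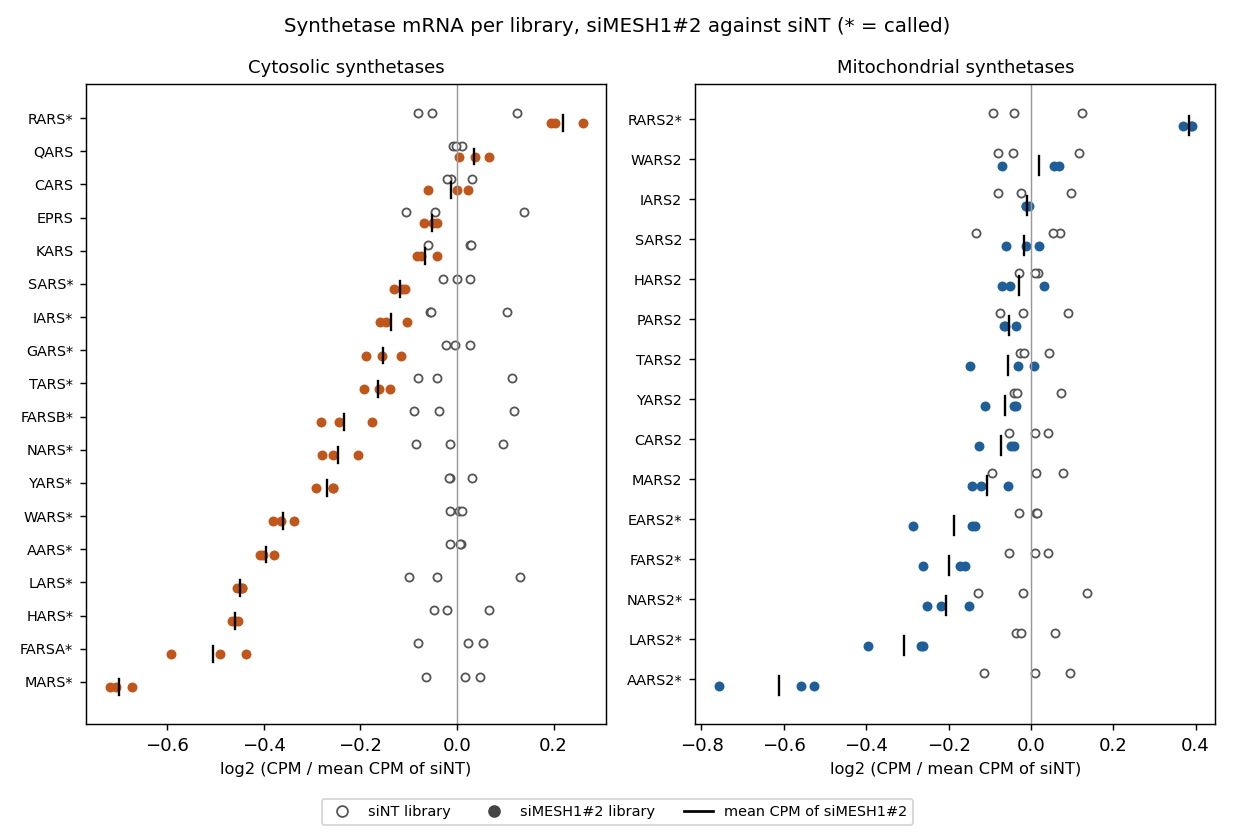
Each row is a synthetase of experiment 2, with the log2 ratio of its CPM in each library to the mean CPM of the 3 siNT libraries on the x axis, cytosolic members on the left and mitochondrial on the right. Open points are siNT libraries, filled points siMESH1#2 libraries, the black tick is the siMESH1#2 mean, and an asterisk marks a call: 13 cytosolic and 5 mitochondrial members lie left of siNT, and RARS and RARS2 lie right of it.

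The promoters of these genes were read for the C/EBP-ATF element, since it is the sequence through which ATF4 is known to act on synthetase genes. RefSeq promoter windows on GRCh38.p14, from 250 bases before to 50 bases after the start site, were found for 30 members (16 cytosolic and 14 mitochondrial), and AARS2, LARS, VARS, VARS2 and YARS had no entry. The letters TGATGNAA, on either strand, were present in 7 of the 16 cytosolic promoters (43.8%) and in 1 of the 14 mitochondrial ones (7.14%), against 4.46% of the 27305 genes with a promoter. The windows are shown 5′ to 3′ on the strand that reads TGATGNAA, with the element in capitals, because they mark which members carry that sequence beside their start site.
AARS: aacttggcTGATGCAActgcgaga
CARS: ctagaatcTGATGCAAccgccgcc
GARS: tcggagcaTGATGAAAtcgccgcg
IARS: cacggaggTGATGCAAcgcgctga
MARS: tccctcgcTGATGCAAccggaacc
NARS: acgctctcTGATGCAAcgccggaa
TARS: ggaccagcTGATGCAAtcgaaagg
YARS2: cacactgcTGATGGAAaaattaag
The AARS window is chr16:70289678-70289701 (plus strand), CARS chr11:3057410-3057433 (plus), GARS chr7:30594837-30594860 (minus), IARS chr9:92293695-92293718 (plus), MARS chr12:57488056-57488079 (minus), NARS chr18:57621807-57621830 (minus), TARS chr5:33440959-33440982 (minus) and YARS2 chr12:32756079-32756102 (minus). Of the 7 cytosolic windows 6 carried TGATGCAA. The centre of the element lay 183 bases upstream of the start site in AARS and 193 bases upstream in YARS2, and at most 29 bases from the start site in the other 6.

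With siMESH1#2, 6 of the 7 cytosolic genes with the element were called lower and 0 higher, with a median log2 change of -0.16. Of the 9 cytosolic genes whose window did not hold these letters 5 were called lower and 1 higher, with a median of -0.12. Of all genes 26.7% were called lower and 26.6% higher. The pattern was not the same with siMESH1#1. There 3 of the 7 genes with the element were called higher and 3 lower, with a median log2 change of 0.18. Of the 9 without it 2 were called higher and 5 lower, with a median of -0.83. Of all genes 36.9% were called higher and 37.2% lower with siMESH1#1. These counts and medians were not corrected for GC content, which the changes with siMESH1#1 followed. Whether genes with and without the element differ was not tested. A match is a description of the sequence only, and binding was not measured here.

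With siMESH1#2 most mitochondrial synthetases did not pass the test, and the difference from the cytosolic enzymes was not tested. Of 15 tested, 5 were called lower (33.3%) and 1 higher (6.67%), and 9 did not pass the test, beside 26.7% and 26.6% of all genes. Their median log2 change was -0.060. AARS2, the mitochondrial alanine enzyme, had the furthest fall, from 37.4, 35.2 and 32.4 CPM in siNT to 23.8, 20.7 and 24.3 CPM, a log2 change of -0.61 (SE 0.075, edgeR adjusted p = 3.37e-06). LARS2, for leucine, fell from 21.0, 21.2 and 22.5 CPM to 17.96, 17.90 and 16.37 CPM, a log2 change of -0.31 (SE 0.070, edgeR adjusted p = 0.00148). Neither gene's groups overlapped.

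The other 3 falls were near the threshold. NARS2, for asparagine, went from 13.5, 12.5 and 15.1 CPM to 11.8, 12.4 and 11.5 CPM, a log2 change of -0.21 (SE 0.084, edgeR adjusted p = 0.0479). FARS2, for phenylalanine, went from 20.3, 19.9 and 19.0 CPM to 17.7, 17.5 and 16.5 CPM, a log2 change of -0.20 (SE 0.069, edgeR adjusted p = 0.0235). EARS2, for glutamate, had a log2 change of -0.19 (edgeR adjusted p = 0.0109). The NARS2 call was lost without any 1 library other than siNT replicate 2, the FARS2 call without siNT replicate 1 or 2 or siMESH1#2 replicate 2 or 3, and the EARS2 call without siMESH1#2 replicate 3. The number of mitochondrial members called lower was 2 without siMESH1#2 replicate 3, 3 without siMESH1#2 replicate 2 or siNT replicate 1, and 3 after the GC correction, under which FARS2 and EARS2 were no longer called.

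RARS2, the mitochondrial arginine enzyme, rose like its cytosolic mate. RARS2 lay at 39.8, 38.4 and 44.6 CPM in siNT and at 52.9, 53.6 and 53.6 CPM with siMESH1#2, a log2 change of 0.38 (SE 0.061, edgeR adjusted p = 5.5e-05), and the groups did not overlap. The 9 mitochondrial members not called (CARS2, HARS2, IARS2, MARS2, PARS2, SARS2, TARS2, WARS2 and YARS2) had log2 changes between -0.11 and 0.020. The 95% interval for IARS2, the most abundant of them in CPM, was -0.11 to 0.094.

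With siMESH1#1 both compartments split into members that rose and members that fell, and the split followed GC content. Of the 19 cytosolic members 7 were called higher (36.8%) and 9 lower (47.4%), and of the 15 mitochondrial members 5 were called higher (33.3%) and 7 lower (46.7%), where 36.9% of all 13395 genes were called higher and 37.2% lower (74.1% either way). The siMESH1#1 libraries all lay above siNT for 8 cytosolic and 6 mitochondrial members and all below it for 10 and 9, orders found for 40.2% and 42.5% of all genes. The median log2 change was -0.69 for cytosolic and -0.82 for mitochondrial members, against -0.047 over all genes. The 12 members called higher had transcripts of 41.2% to 49.9% GC. Of the 16 called lower, FARSB had 41.6% GC and the other 15 had at least 48.4%.

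The 3 siMESH1#1 libraries differed in degree. Replicate 2 lay farthest from siNT for 25 of the 28 called members (the exceptions were FARSB, YARS2 and MARS2), and replicate 3 lay nearest for 25 of the 28. Experiment 1 was run on lanes 4 to 7. In lane 4 and in lane 6, which each hold 1 library of siNT and 1 of siMESH1#1, all 28 called members changed in the called direction. The groups of these 28 did not overlap, so this outcome was fixed in advance and cannot tell of an effect of lane.

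After the GC correction, which moved the median log2 change of all genes from -0.047 to 0.18 and changed the split of all genes from 4945 higher and 4981 lower to 5485 higher (40.9%) and 3528 lower (26.3%), the medians of the compartments lay on either side of that of all genes. Cytosolic members then had 6 called higher and 7 lower with a median of -0.20, which is -0.38 relative to all genes. Mitochondrial members had 8 called higher and 3 lower with a median of 0.59, which is 0.41 relative to all genes. The ranges of the compartments overlapped, at -2.94 to 0.81 for cytosolic and -1.40 to 1.18 for mitochondrial members, and the difference between them was not tested. With GC content taken as the median over transcripts, a choice made after seeing the data, the mitochondrial median was 0.13 with 4 members lower, below the 0.18 of all genes. Corrected values are given below where the correction ended a call or turned its direction.

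FARSA fell furthest with siMESH1#1. FARSA lay at 45.1, 32.1 and 40.3 CPM in siNT and at 0.379, 0.130 and 1.55 CPM with siMESH1#1, which rested on 12, 5 and 54 reads. The log2 change was -5.83 (SE 0.88, edgeR adjusted p = 0.00186), or -7.32 without siMESH1#1 replicate 3, and it was -2.94 after the GC correction. FARSB, with its low GC content, lay at 128, 117 and 125 CPM in siNT and at 72.1, 91.8 and 66.0 CPM with siMESH1#1, a log2 change of -0.69 (SE 0.14, edgeR adjusted p = 0.00601) where the median of its GC class was 0.85. Its corrected log2 change was -1.39, and both subunits of the enzyme remained called lower.

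MARS lay at 329, 287 and 317 CPM in siNT and at 71.1, 27.9 and 122 CPM with siMESH1#1, a log2 change of -2.08 (SE 0.51, edgeR adjusted p = 0.011). AARS lay at 371, 352 and 365 CPM in siNT and at 76.9, 24.8 and 166 CPM with siMESH1#1, a log2 change of -2.02 (SE 0.64, edgeR adjusted p = 0.0277). Both stayed called lower after the GC correction, at -1.10 and -1.14. In both the siMESH1#1 libraries spread several-fold, yet the highest of them was below the lowest siNT library. Without siMESH1#1 replicate 3 the log2 changes were -2.67 for MARS and -2.85 for AARS.

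HARS, SARS, WARS and YARS fell too, with calls that depended on the settings. HARS went from 220, 203 and 225 CPM to 77.8, 33.1 and 139 CPM (log2 change -1.37, SE 0.48), and SARS from 308, 281 and 309 CPM to 152, 85.8 and 205 CPM (-1.02, SE 0.30). WARS went from 211, 198 and 210 CPM to 112, 82.8 and 153 CPM (-0.83, SE 0.22), and YARS from 883, 849 and 876 CPM to 479, 305 and 628 CPM (-0.88, SE 0.26). Their edgeR adjusted p ran from 0.0151 to 0.0407. Corrected for GC content, HARS (-0.21) and SARS (-0.23) were no longer called, WARS was still called lower (-0.18), and YARS was called higher (0.81).

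Single libraries also decided several of these calls. AARS, HARS, SARS and YARS lost theirs without siNT replicate 1, 2 or 3 or without siMESH1#1 replicate 1, and WARS lost its call without siMESH1#1 replicate 1. The number of cytosolic members called lower was 5 without any 1 siNT library and 4 without siMESH1#1 replicate 1. HARS had a log2 change of -1.98 without siMESH1#1 replicate 3. CARS, the cysteine enzyme, also fell (log2 change -1.51, SE 0.39, edgeR adjusted p = 0.0136) and kept its call without each library.

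Before the GC correction, the cytosolic rises were led by enzymes of the multisynthetase complex. RARS lay at 241, 236 and 238 CPM in siNT and at 508, 598 and 431 CPM, a log2 change of 1.10 (SE 0.13, edgeR adjusted p = 0.000887). IARS lay at 395, 406 and 388 CPM in siNT and at 718, 808 and 683 CPM, a log2 change of 0.89 (SE 0.095, edgeR adjusted p = 0.000612). With GC content corrected both remained called higher, at log2 changes of 0.39 and 0.39.

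LARS rose from 594, 616 and 605 CPM to 1029, 1140 and 910 CPM (log2 change 0.76, SE 0.11, edgeR adjusted p = 0.00149) and NARS from 698, 698 and 685 CPM to 1143, 1303 and 1068 CPM (0.76, SE 0.10, edgeR adjusted p = 0.00132). TARS changed little, from 420, 405 and 419 CPM to 514, 572 and 461 CPM (0.31, SE 0.10, edgeR adjusted p = 0.0316), and lost its call without siNT replicate 1, 2 or 3 or siMESH1#1 replicate 1. Under the GC correction NARS was still called higher (0.32), LARS (0.060) and EPRS (0.10) were not called, and TARS was called lower (-0.20). Of the 8 complex enzymes 5 were called higher and 1 lower with siMESH1#1 before the correction, and 3 higher and 1 lower after it. Of all genes 36.9% were called higher and 37.2% lower before it, and 40.9% and 26.3% after it. The corrected median of the complex enzymes was 0.080, below the 0.18 of all genes.

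**Figure D2:**
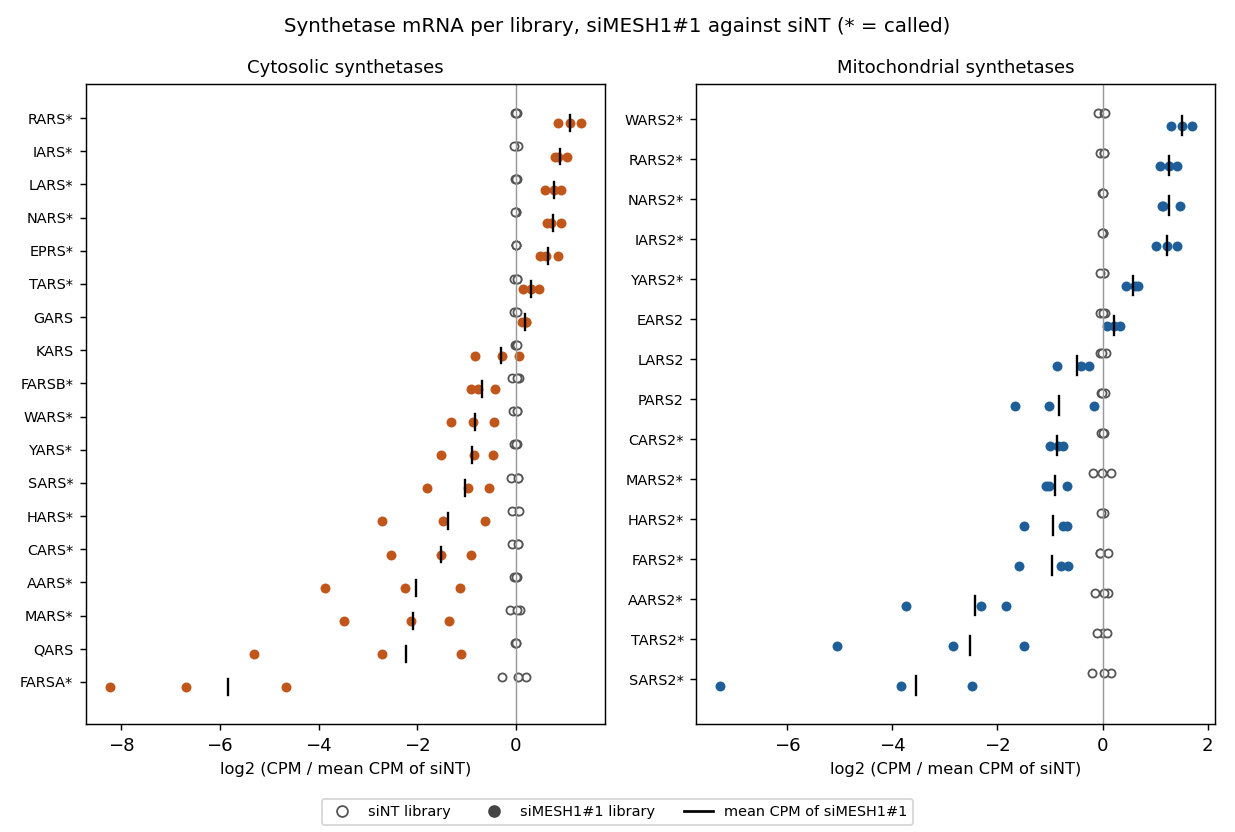
Each row is a synthetase of experiment 1, with the log2 ratio of its CPM in each library to the mean CPM of the 3 siNT libraries on the x axis, cytosolic members on the left and mitochondrial on the right. Open points are siNT libraries, filled points siMESH1#1 libraries and the black tick their mean, and an asterisk marks a call: 6 cytosolic and 5 mitochondrial called members that are drawn lie right of siNT, and 9 and 7 lie left of it with wide spread.

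Among mitochondrial enzymes WARS2, for tryptophan, rose most with siMESH1#1, from 35.4, 38.7 and 39.1 CPM to 107, 123 and 92.7 CPM, a log2 change of 1.51 (SE 0.13, edgeR adjusted p = 0.000385). RARS2 went from 74.5, 78.2 and 78.5 CPM to 184, 207 and 164 CPM (1.26, SE 0.11, edgeR adjusted p = 0.000383), and NARS2 from 19.99, 19.81 and 19.999 CPM to 43.99, 55.50 and 43.72 CPM (1.26, SE 0.14, edgeR adjusted p = 0.000674). IARS2 and YARS2 were called higher as well, with log2 changes of 1.23 and 0.58. All 5 remained called higher after the GC correction, with values from 0.59 to 0.92.

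Of the 7 mitochondrial falls, SARS2 and TARS2 went furthest. SARS2, for serine, went from 9.02, 7.02 and 8.21 CPM to 0.569, 0.0520 and 1.44 CPM, which rested on 18, 2 and 50 reads (log2 change -3.56, SE 0.90, edgeR adjusted p = 0.0125). TARS2, for threonine, went from 37.8, 34.6 and 39.7 CPM to 5.22, 1.12 and 13.3 CPM (-2.51, SE 0.81, edgeR adjusted p = 0.0296), and AARS2 from 22.5, 18.9 and 21.2 CPM to 4.21, 1.56 and 5.84 CPM (-2.43, SE 0.48, edgeR adjusted p = 0.00493). FARS2 went from 20.4, 18.3 and 18.2 CPM to 11.005, 6.27 and 12.1 CPM (-0.96, SE 0.27, edgeR adjusted p = 0.0198). The TARS2 call was lost without siNT replicate 1, 2 or 3 or siMESH1#1 replicate 1, the FARS2 call without any 1 siNT library and the SARS2 call without siMESH1#1 replicate 1. Without siMESH1#1 replicate 3 the log2 change was -4.79 for SARS2 and -3.59 for TARS2.

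Of these, TARS2 (-1.40 after the GC correction) was still called lower, and HARS2 (-0.65) and MARS2 (-0.82) were too. SARS2 (-0.72) was no longer called, AARS2 was at 0.17, FARS2 (0.66) and CARS2 (1.18) were called higher, and EARS2 (0.87) gained a call. AARS2 at 0.17 lay next to the corrected median of all genes, 0.18.

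**Figure D3:**
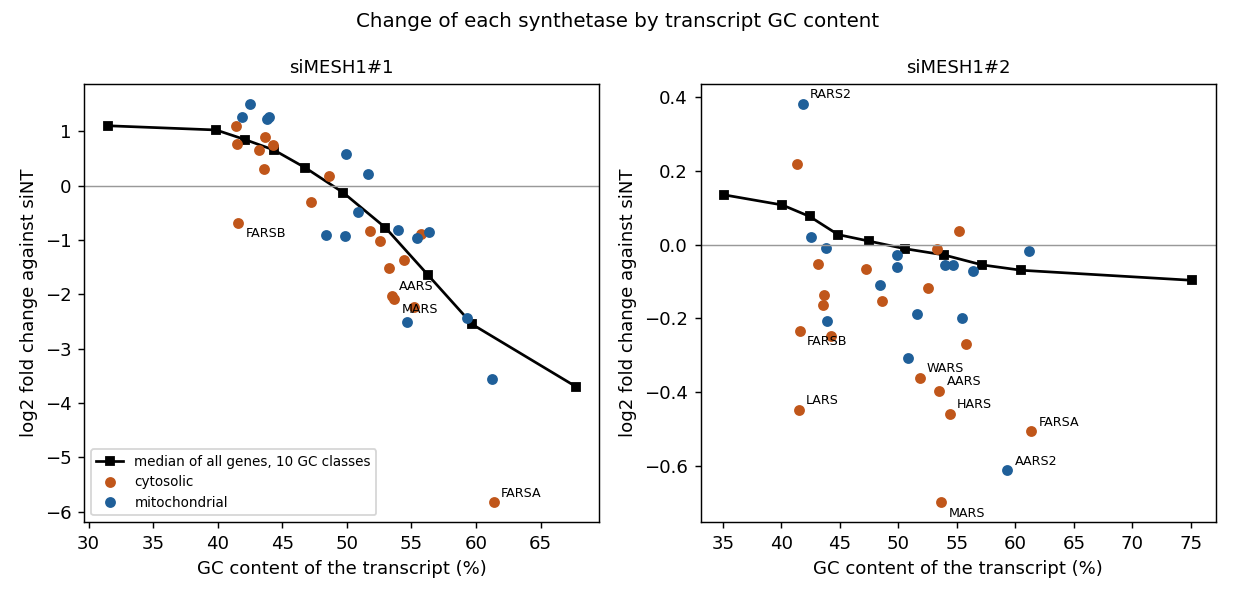
The log2 fold change of each synthetase against siNT (y axis) is plotted over the GC content of its transcript in percent (x axis), for siMESH1#1 on the left and siMESH1#2 on the right, with the median of all genes in 10 GC classes as black squares at the middle of each class. With siMESH1#1 the synthetases track the falling class medians, with FARSA and FARSB farther below them, and with siMESH1#2 the class medians stay between 0.14 and -0.10 while most cytosolic and 13 of 15 mitochondrial members lie below them.

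Across both siRNAs, 10 of the 34 tested members were called lower with each (29.4%, where 15.1% of all genes tested in both were) and 2 were called higher with each (5.88%, where 15.5% were). The 10 were AARS, HARS, MARS, SARS, WARS, YARS, FARSA, FARSB, AARS2 and FARS2, and the 2 were RARS and RARS2, the arginine enzymes of the cytosol and the mitochondrion. Both changes in RARS and RARS2 held after the GC correction with each siRNA. Of the 10 falls, AARS, MARS, WARS, FARSA and FARSB were still called lower with both siRNAs after the correction. The share of all genes called with both siRNAs after the correction was not computed.

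In the opposite direction, IARS, LARS, NARS, TARS and NARS2 were called higher with siMESH1#1 and lower with siMESH1#2 (14.7% of members, where 5.93% of all genes were), and 0 members were called lower with siMESH1#1 and higher with siMESH1#2, where 5.65% of all genes were. Tested directly in 1 fit of all 12 libraries, the change differed between the siRNAs for 28 of the 34 members, being higher with siMESH1#2 for 16 and with siMESH1#1 for 12, where 69.7% of all 14154 genes differed (39.7% and 30% in these directions). With the GC correction 21 members differed (61% of all genes), and with limma voom 31 did (64.6%). Each of the 5 members of opposite sign was among the 28: the log2 change with siMESH1#2 minus that with siMESH1#1 was -1.06 (SE 0.13) for LARS, -0.88 (SE 0.11) for IARS, -0.85 (SE 0.12) for NARS, -0.33 (SE 0.12) for TARS and -1.32 (SE 0.16) for NARS2, with edgeR adjusted p from 5.01e-05 to 0.032. Corrected for GC content, the difference for TARS was 0.13 (edgeR adjusted p = 0.0971), and the other 4 remained called. Only KARS, QARS and PARS2 were called with neither siRNA.

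**Figure D4:**
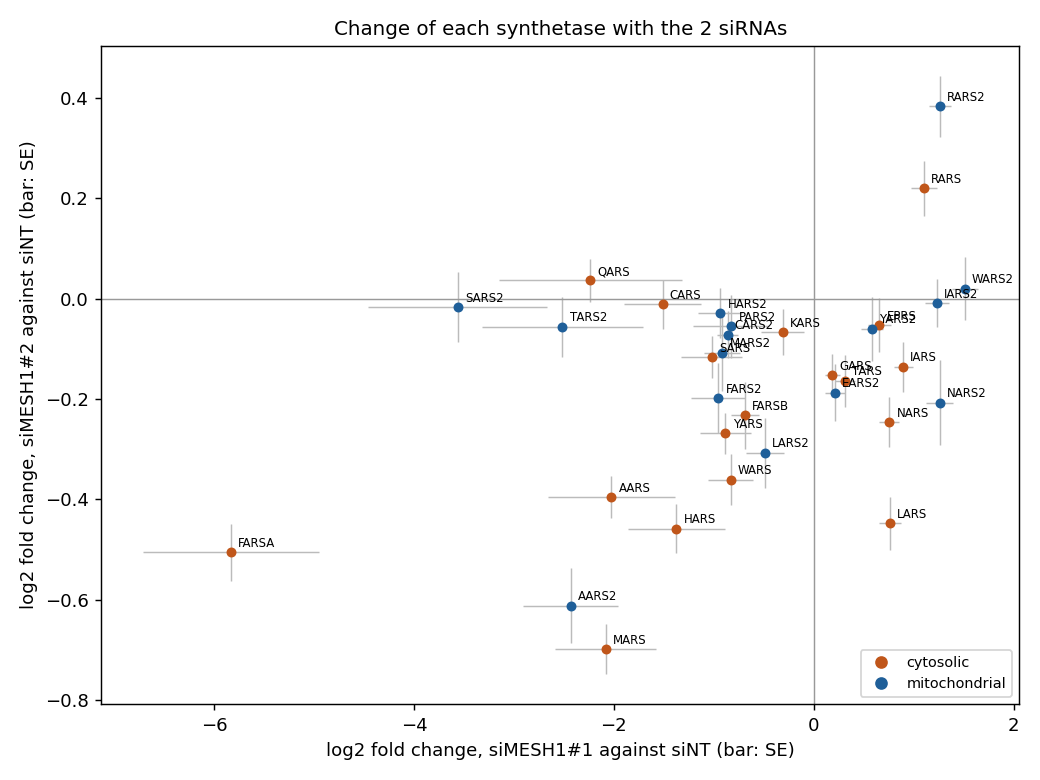
Each point is a tested synthetase, with its log2 fold change with siMESH1#1 on the x axis and with siMESH1#2 on the y axis, bars of 1 SE, and colours for the compartment. The x axis spans -5.83 to 1.51 and the y axis -0.70 to 0.38, with RARS and RARS2 at the upper right, MARS, AARS2 and FARSA at the lower left, and LARS alone far down on the right.

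Summed over each compartment, the 2 experiments gave different pictures. The 20 cytosolic genes summed to 6470 to 6656 CPM in siNT of experiment 1 and to 7116 to 7321 CPM with siMESH1#1, and the 16 mitochondrial genes to 843 to 855 CPM and to 1187 to 1376 CPM. In experiment 2 the cytosolic sum was 2997 to 3191 CPM in siNT and 2662 to 2719 CPM with siMESH1#2, and the mitochondrial sum 797 to 821 CPM and 767 to 785 CPM. The groups did not overlap in any of the 4 comparisons, with sums higher than siNT in both compartments with siMESH1#1 and lower in both with siMESH1#2. The log2 ratio of the cytosolic to the mitochondrial sum fell with both siRNAs, from between 2.94 and 2.97 to between 2.41 and 2.60 with siMESH1#1 and from between 1.91 and 1.96 to between 1.76 and 1.83 with siMESH1#2. These sums are weighted towards abundant genes, and no test was run on them. With siMESH1#1 IARS2 alone went from a mean of 284 CPM to 666 CPM. The median log2 change was -0.82 for mitochondrial and -0.69 for cytosolic members there, so the fall of the ratio does not describe the typical member. The sums were not corrected for GC content, and the ratio without IARS2 was not computed.

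**Figure D5:**
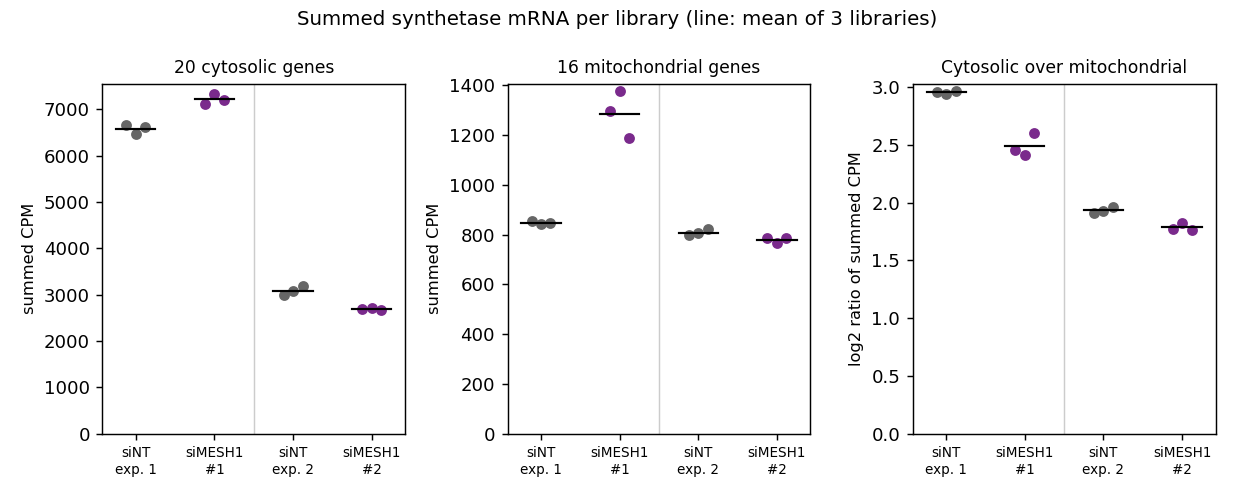
Points are single libraries and lines the means of 3, with groups of each experiment side by side on the x axis and the summed CPM of cytosolic genes, of mitochondrial genes and the log2 ratio of these sums on the y axes of the 3 panels. The ratio of every siMESH1 library lies below all siNT libraries of its experiment, while the sums lie above siNT with siMESH1#1 and below it with siMESH1#2.

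Compared amino acid by amino acid within each library, the log2 ratio of the cytosolic to the mitochondrial mRNA was lower in all siMESH1#2 libraries than in all siNT libraries for 7 of 16 pairs, higher for 1 and overlapping for 8. The methionine pair (MARS over MARS2) shifted furthest, from between 2.73 and 3.02 in siNT to between 2.22 and 2.33 with siMESH1#2, followed by the histidine pair (HARS over HARS2), from between 0.33 and 0.44 to between -0.092 and 0.0028. The alanine pair (AARS over AARS2) was the 1 that was higher. For 6 pairs the ratio was lower without overlap in both experiments: FARSA over FARS2, IARS over IARS2, MARS over MARS2, RARS over RARS2, WARS over WARS2 and YARS over YARS2. The arginine pair (RARS over RARS2), whose members both rose, went from between 1.45 and 1.53 to between 1.29 and 1.36 with siMESH1#2 and from between 1.59 and 1.69 to between 1.39 and 1.53 with siMESH1#1. With siMESH1#1 8 pairs were lower, 5 higher and 3 overlapped. No share over other pairs of genes was computed. Of single genes, 29.9% lay wholly below siNT and 29.6% wholly above it with siMESH1#2. With siMESH1#1 these shares were 42.5% and 40.2%. EPRS and FARS2 each enter more than 1 pair. The ratios were not corrected for GC content, which can differ within a pair, as between WARS (51.8%) and WARS2 (42.5%).

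Genes that act beside the synthetases were counted from a separate list. Of 15 tested cytosolic partners (scaffolds, tRNA export, elongation factors, tRNA editing and selenocysteine enzymes, GCN2, ATF4 and its target ASNS), 5 were called higher and 5 lower with siMESH1#1, where 36.9% and 37.2% of all genes were, and 3 and 3 with siMESH1#2, where 26.6% and 26.7% were. Of the scaffolds, AIMP2 was called lower with both siRNAs, at log2 changes of -0.93 (SE 0.19) and -0.33 (SE 0.059), EEF1E1 had log2 changes of 0.61 and -0.20 and was called only with siMESH1#1, and AIMP1 had 0.46 and -0.0014 and was called with neither. TARSL2, a paralogue of TARS, was called higher with both, at 1.59 (SE 0.12) and 0.63 (SE 0.078), and so was the kinase gene EIF2AK4, at 0.92 (SE 0.082) and 0.19 (SE 0.051). Under the GC correction EEF1E1 was called lower with both (-0.25 and -0.24) and AIMP1 was called lower with siMESH1#1 (-0.42).

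ATF4 and its target ASNS are named here after their values were seen. ATF4 mRNA had log2 changes of -0.91 (SE 0.73) and -0.0034 (SE 0.043), with edgeR adjusted p of 0.292 and 0.954. After the GC correction ATF4 was called higher with siMESH1#2 (0.12), where the median of all genes was 0.076 and 39.3% of them were called higher. Its protein is not measured by these counts. ASNS, asparagine synthetase, fell with siMESH1#2 (log2 change -0.79, SE 0.091, edgeR adjusted p = 1.59e-06) and had a log2 change of 0.066 with siMESH1#1 (edgeR adjusted p = 0.506). Of 13 tested mitochondrial partners, 7 were called higher and 2 lower with siMESH1#1, and 4 and 3 with siMESH1#2, against the same shares of all genes. MTFMT, which formylates the initiator methionyl-tRNA, was called higher with both (1.07, SE 0.13, and 0.58, SE 0.074), as were the factors GFM2 (1.25 and 0.19), MTIF2 (0.79 and 0.24) and MTIF3 (1.15 and 0.21), of which MTIF2 was not called with siMESH1#1 after the GC correction (0.089). TUFM, the mitochondrial elongation factor Tu, was called lower with both (-4.62 and -0.12), and its change with siMESH1#2 was 0.013 after the GC correction.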

How the data were processed

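RNA of RCC4 cells was sequenced in 12 libraries, 3 per group. The authors deposited 1 table per library with whole-number counts for each gene symbol, not normalized. The submitters' processing notes name FastQC, HISAT2, HTSeq and DESeq2 and the build hg19, and the library kit keeps strand. Rows that name no gene held 10% to 20.8% of reads for no feature, 0% to 7.59% for low quality and 9.98% to 27.1% for reads placed more than once, and were left out. Comparison tables that the authors made with DESeq2 (means, fold changes, errors and p-values) were not used.

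The quasi-likelihood test of edgeR 4.0.16 (R 4.3.3, filterByExpr, TMM, glmQLFit, glmQLFTest) compared each siRNA with the siNT of its experiment, with Benjamini-Hochberg adjustment over all genes and a threshold of 0.05. The difference between the siRNAs used 1 fit of 4 groups. The SE of a log2 change is its size over the root of the F statistic, and 95% intervals use the t distribution with the degrees of freedom of that test. An exact permutation test of 3 against 3 cannot go below 0.1, so single values were not tested that way. For the GC correction, log2 CPM of each library was smoothed over transcript GC content (lowess, span 0.3) and the smooth entered the fit as an offset, with GC content of the principal transcript in GENCODE 29 (GRCh38), matched for 21257 symbols by name and 1096 by an older symbol. Alternatives were DESeq2 1.42.0, limma 3.58.1 and other scalings, filters and terms. The steps were tested on simulated data without a GC trend, and recovery was required only at a spread near that of experiment 2. Recovery at the spread of experiment 1 (0.299) is not given here. No 2 libraries of a group agreed within sampling noise. Groups came from the labels.

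The members and lists were chosen with earlier results of these data known. Named with every library were members called with both siRNAs, in the same or opposite directions, and the 3 largest calls per compartment, direction and siRNA. Others were given by ranges and counts. The values of 1 tested cytosolic member are not reported here by name or drawn as points, and it stays in all counts and sums. Figures were drawn with matplotlib 3.10.9.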

Additional observations from a re-analysis of the deposited data

Results flagged for a closer look

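For 28 of the 34 tested members the 2 siRNAs changed the mRNA by different amounts, by the test of the difference itself (edgeR, all 12 libraries, adjusted p under 0.05), where 69.7% of the 14154 genes tested differed too. The experiments differed in run and lane as well as in siRNA, which cannot be told apart. Values are the log2 change with siMESH1#2 minus that with siMESH1#1. The change was higher with siMESH1#2 for the cytosolic enzymes AARS (1.77), CARS (1.65), MARS (1.53), QARS (2.42), SARS (1.05), WARS (0.62), YARS (0.76), FARSA (5.48) and FARSB (0.60). It was lower with siMESH1#2 for the cytosolic EPRS (-0.56), IARS (-0.88), LARS (-1.06), NARS (-0.85), RARS (-0.73) and TARS (-0.33).

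Among mitochondrial enzymes the change was higher with siMESH1#2 for AARS2 (1.97), CARS2 (0.94), FARS2 (0.91), HARS2 (1.05), MARS2 (0.96), SARS2 (3.70) and TARS2 (2.61). It was lower with siMESH1#2 for IARS2 (-1.09), NARS2 (-1.32), RARS2 (-0.73), WARS2 (-1.34) and YARS2 (-0.49). After the GC correction 21 members differed between the siRNAs (61% of all genes), and for YARS (-1.02), AARS2 (-0.70), CARS2 (-1.19) and FARS2 (-0.78) the called difference had the opposite sign. With limma voom and weights per group, 31 members differed.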

How the results depend on the processing

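With siMESH1#1, TARS lost its call with DESeq2, with library-size or RLE scaling, with at least 10 counts in every library, in 1 fit of 4 groups, with a lane covariate and with the replicate block. Library-size scaling gave a cytosolic median of -0.96 (all genes -0.31). The GC correction gave medians of -0.20 (cytosolic) and 0.59 (mitochondrial), with 8 mitochondrial members higher and 3 lower, and reversed TARS (-0.20), YARS (0.81), AARS2 (0.17), CARS2 (1.18) and FARS2 (0.66). With GC content as the median over transcripts, an alternative chosen after seeing the data, 4 mitochondrial members were lower with a median of 0.13, and EPRS (-0.027), TARS (-0.19), AARS2 (0.13) and FARS2 (0.053) reversed. Tested against a fold change of the square root of 2, 4 cytosolic members were lower.

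With siMESH1#2, 3 mitochondrial members were lower with DESeq2. In 1 fit of 4 groups, whose estimate of spread includes experiment 1, 1 cytosolic and 0 mitochondrial members were lower and 0 cytosolic members higher. Tested against a fold change of the square root of 2, 1 cytosolic member was lower (MARS), 0 were higher, and 0 mitochondrial members were called either way, so most of these changes were not shown to exceed that size. The GC correction gave 3 cytosolic members higher, and 2 mitochondrial higher and 3 lower with a median of 0.028, and reversed CARS (0.099) and SARS2 (0.12). It moved the median of all genes to 0.076, with 39.3% of them called higher. With the median GC content over transcripts 3 cytosolic members were higher and 3 mitochondrial lower with a median of 0.0020, and CARS (0.087) reversed. The median of all genes was then 0.073.

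Same-numbered libraries were not treated as pairs in the main fits. Their deviations correlated at -0.047, 0.22 and 0.13 in experiment 1 and at -0.063, 0.042 and -0.076 in experiment 2. Not every library correlated best with its own number. With 3 libraries per group, these values cannot settle whether the libraries were paired. The replicate block alone left 6 cytosolic members higher and 10 lower with siMESH1#1 and 13 lower with siMESH1#2, and it changed the call of TARS and QARS with siMESH1#1 and of NARS2 with siMESH1#2. With the replicate block and the GC correction together, siMESH1#1 gave medians of -0.20 and 0.59, with 8 mitochondrial members higher and 3 lower. TARS (-0.20), YARS (0.80), AARS2 (0.16), CARS2 (1.07) and FARS2 (0.65) reversed. In the same setting siMESH1#2 gave 3 cytosolic members higher, 2 mitochondrial lower with a median of 0.026, and reversed CARS (0.099). The medians of all genes were then 0.17 with siMESH1#1 and 0.076 with siMESH1#2. Leaving out single libraries gave, with siMESH1#1, 6 to 8 cytosolic members higher and 4 to 11 lower (medians -0.73 to -0.61) and 5 to 6 mitochondrial higher and 5 to 9 lower (medians -0.88 to -0.52). With siMESH1#2 it gave 1 to 2 cytosolic members higher, with 2 when siNT replicate 3 was left out, and 10 to 13 lower (medians -0.20 to -0.14), and 1 mitochondrial higher and 2 to 5 lower (medians -0.083 to -0.050). Few reads limited FARSA and SARS2 with siMESH1#1, at 5 to 54 and 2 to 50 reads per library, and VARS and VARS2 could not be tested, for which the cause was not tested.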

Other observations

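The level of the cytosolic synthetases in control cells differed between the experiments. Per kilobase of principal transcript, the 19 tested cytosolic members had a median of 104 CPM per kb in siNT of experiment 1 and of 48.8 in siNT of experiment 2, whereas the 15 mitochondrial members had 13.5 and 12.8. The log2 ratio of the summed cytosolic to the summed mitochondrial CPM, which a library's scaling does not alter, was 2.94 to 2.97 in siNT of experiment 1 and 1.91 to 1.96 in siNT of experiment 2. The experiments also differed in sequencing lane and in the reads left out of the counts. Low quality took 6.31% to 7.59% of reads in the libraries of experiment 1 and 0% in experiment 2. Reads placed more than once made up 9.98% to 12.6% and 23.6% to 27.1%. These differences cannot be told apart from others between the experiments. ASNS mRNA lay at a mean of 199 CPM in siNT of experiment 1 and 19.6 in experiment 2.

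In experiment 1 the highest levels were YARS (269 CPM per kb ± 5.46, SD, n = 3), NARS (224 ± 2.43), GARS (198 ± 4.64) and SARS (162 ± 8.51), whose library ranges did not overlap. In experiment 2 SARS (106 ± 2.04) and YARS (101 ± 1.87) led, followed by CARS2 (76.5 ± 2.54), the most abundant mitochondrial member there, and by GARS (72.7 ± 1.26), KARS (72.7 ± 2.53) and NARS (72.2 ± 4.55), whose library ranges overlapped. The lowest tested members per kb were SARS2 (3.93 ± 0.49) in experiment 1 and LARS2 (4.54 ± 0.17) in experiment 2.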
